A study of Mus musculus with 9 samples.

Results

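The Toll-like receptor genes Tlr1 to Tlr9 and their co-receptor gene Cd14 were followed on microarrays of mouse lung RNA. The 10 genes were chosen by name, as members of 1 receptor family and its co-receptor, with earlier results of these data known. All 10 were found among the 19698 named genes of the arrays, each through the RefSeq accession of its probe. The arrays came from male C57BL/6 mice given as 10 weeks old, with 4 arrays labelled control and 5 labelled irradiated. The methods do not say whether 10 weeks was the age at irradiation or at sampling. Each array carried labelled lung RNA. The irradiated group received a single radiation dose to the left lung, and the control group was not irradiated. For none of the arrays do the labels state the dose, the irradiated region or the interval to sampling, while the study used more than one of each. Each irradiated array may therefore come from a different setting, and the spread between the irradiated arrays includes any such difference. The methods state that RNA of repeated experiments was pooled before labelling, so an array stands for a pool of mice and the p-values measure the spread between these pools.

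Toll-like receptors are membrane proteins that bind molecules of microbes and, in several cases, molecules set free from damaged cells. Tlr1, Tlr2, Tlr4, Tlr5 and Tlr6 act at the cell surface on lipopeptides, lipopolysaccharide or flagellin. Tlr3, Tlr7, Tlr8 and Tlr9 act inside endosomes on nucleic acids. Cd14 hands lipopolysaccharide to Tlr4 and lipopeptides to Tlr2. All but Tlr3 signal through the adaptor Myd88, while Tlr3 uses Ticam1 and Tlr4 can use both, and the pathways end in NF-kB and interferon regulatory factors. In the lung, macrophages, neutrophils, dendritic cells and epithelial cells carry these receptors.

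The sequences around the start of transcription are shown for Tlr2, Tlr3 and Tlr8, the 3 receptors with the largest differences between the groups. They were taken from RefSeq on the assembly GRCm38.p6 and run 5′ to 3′ on the strand of the gene, from 250 bases before the start to 50 bases after it. Capitals mark matches to 5 motifs that were searched on both strands: the NF-kB site, the GC box GGGCGG, the PU.1 core GAGGAA, the AP-1 site TGANTCA and the interferon-stimulated response element GAAANNGAAA. The NF-kB site was searched as GGG, a purine, any base, 3 pyrimidines and CC.
Tlr2, chr3:83841559-83841858, minus strand: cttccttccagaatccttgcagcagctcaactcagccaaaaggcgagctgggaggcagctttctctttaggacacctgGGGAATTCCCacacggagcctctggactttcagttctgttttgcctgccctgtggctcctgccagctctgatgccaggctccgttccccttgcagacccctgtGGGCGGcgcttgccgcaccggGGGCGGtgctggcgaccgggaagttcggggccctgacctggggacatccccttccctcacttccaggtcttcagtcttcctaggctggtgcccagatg
Tlr3, chr8:45410331-45410630, minus strand: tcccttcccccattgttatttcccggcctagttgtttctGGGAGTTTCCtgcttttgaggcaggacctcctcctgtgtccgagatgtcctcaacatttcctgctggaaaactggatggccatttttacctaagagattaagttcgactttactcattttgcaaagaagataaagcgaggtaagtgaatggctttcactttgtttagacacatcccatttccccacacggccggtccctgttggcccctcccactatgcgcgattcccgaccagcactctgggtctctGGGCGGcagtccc
Tlr8, chrX:167264280-167264579, minus strand: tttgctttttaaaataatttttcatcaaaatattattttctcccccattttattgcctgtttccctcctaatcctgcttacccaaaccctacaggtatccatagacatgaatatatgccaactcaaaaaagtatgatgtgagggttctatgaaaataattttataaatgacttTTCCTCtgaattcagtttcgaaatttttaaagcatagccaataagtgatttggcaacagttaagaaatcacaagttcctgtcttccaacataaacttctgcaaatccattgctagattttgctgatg
The Tlr2 window held a palindromic NF-kB match, GGGAATTCCC, whose first base lies 172 bases before the start and which reads the same on both strands. It also held 2 GC boxes, which begin 69 and 48 bases before the start. The Tlr3 window held the NF-kB match GGGAGTTTCC, which begins 211 bases before the start, and a GC box within the first 50 transcribed bases. With A also allowed at the sixth base of the pattern, a form tried after the sequences were seen, the Tlr2 window held the further match GGGACATCCC, which begins 8 bases before the start and is not in capitals above, and GGGGAATTCC, which overlaps the first match. In this form 6.93% of all promoters held a match. The Tlr8 window held a PU.1 core on the opposite strand, written TTCCTC above, 77 bases before the start, and no NF-kB match. Of 32851 mouse promoters of this length, 5.8% held an NF-kB match, 35.7% a GC box, 28.3% a PU.1 core, 7.81% an AP-1 site and 3.44% an interferon-stimulated response element. Windows were found for 7 of the 10 genes, and NF-kB matches were seen in those of Tlr2 and Tlr3. A window of Tlr6 held a pair of overlapping response elements (GAAAGAGAAA and GAAAGTGAAA, both on the opposite strand), that of Tlr9 an AP-1 match (TGACTCA) and PU.1 cores, that of Tlr5 GC boxes and that of Tlr1 a PU.1 core. A match of letters is a description and does not show that a factor binds there.

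Some features of the arrays bear on the values of the receptors. First, 2 arrays stood apart in muscle genes. Taken as the mean log2 level over a list of 8 cardiac muscle genes relative to the control mean, irradiated array 1 lay at -5.97, against -0.46 to 0.40 on the other irradiated arrays. On a list of 8 skeletal muscle genes, control array 3 lay at 4.62, against -1.76 to -1.39 on the other control arrays. Receptor differences are given without these arrays where they moved most. Second, 4 control arrays and 4 irradiated arrays formed pairs with nearly the same vertical position on the scanner image and nearly the same local background. The pairs were control 1 with irradiated 2, control 2 with irradiated 3, control 3 with irradiated 4 and control 4 with irradiated 5. Within a pair the vertical positions differed by at most 3.8 and the median backgrounds by at most 2. The horizontal positions lay far apart, for example 3556 for control 1 and 6706 for irradiated 2. Irradiated array 1 was given no partner. Its vertical position and background (224.3 and 40) were nearest those of control 2 (218 and 43.5), which lay closer to irradiated 3 (220.1 and 45.5). Horizontally, irradiated 1 lay near control 2 (6625 and 6638), but this position was not used for pairing. The files do not name these pairs, which are called scan pairs here. The deviations from the group means correlated across probes at 0.201 to 0.455 within the scan pairs and at -0.242 to 0.0618 between all other control and irradiated arrays. The comparison was therefore also fitted with the scan pair as a block, once as a fixed term over 8 arrays and once as a random term over all 9.

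All 10 genes were called well above background by the scanner software on all 9 arrays. In the comparison of irradiated with control arrays by limma, with Benjamini-Hochberg adjustment over all probes, 0 of the 10 genes passed an adjusted p of 0.05, and 82 of 19698 genes (0.416%) did. At an unadjusted p under 0.05, 3 of the 10 were higher on the irradiated arrays (Tlr2, Tlr3 and Tlr8), and 7.37% of all genes were higher and 4.98% lower at that level. For 2 of the 10 genes (Tlr2 and Tlr8), every irradiated array lay above every control array, which held for 3.39% of all genes, while 0 of the 10 lay below on every irradiated array, which held for 1.76%. The log2 difference, irradiated minus control, was positive for 6 genes and negative for 4, and it ran from -0.13 for Tlr1 to 0.56 for Tlr2. Its median was 0.16 over the 10 genes and 0.0085 over all genes. The median over the 10 genes was 0.085 with scaling to the 75th percentile, 0.078 in the authors' own normalized table and 0.25 without control 1. Over all genes it was -0.034, -0.013 and 0.015 under these alternatives.

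Within the scan pairs, 6 of the 10 genes (Tlr2, Tlr3, Tlr4, Tlr7, Tlr8 and Cd14) were higher on the irradiated array in all 4 pairs, as were 17.9% of all genes. With the scan pair as a random block, Tlr2, Tlr3 and Tlr8 passed the threshold as higher, as did 5.64% of all genes, while 3.8% of all genes passed as lower. With the scan pair as a fixed block, Cd14 alone of the 10 passed as higher, as did 2.25% of all genes. The pairs were read from the scan and not from the labels, so a result that passes only with them depends on that reading. In RNA from whole tissue, a change in the number of cells that carry a receptor and a change in its RNA per cell cannot be told apart.

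**Figure D1:**
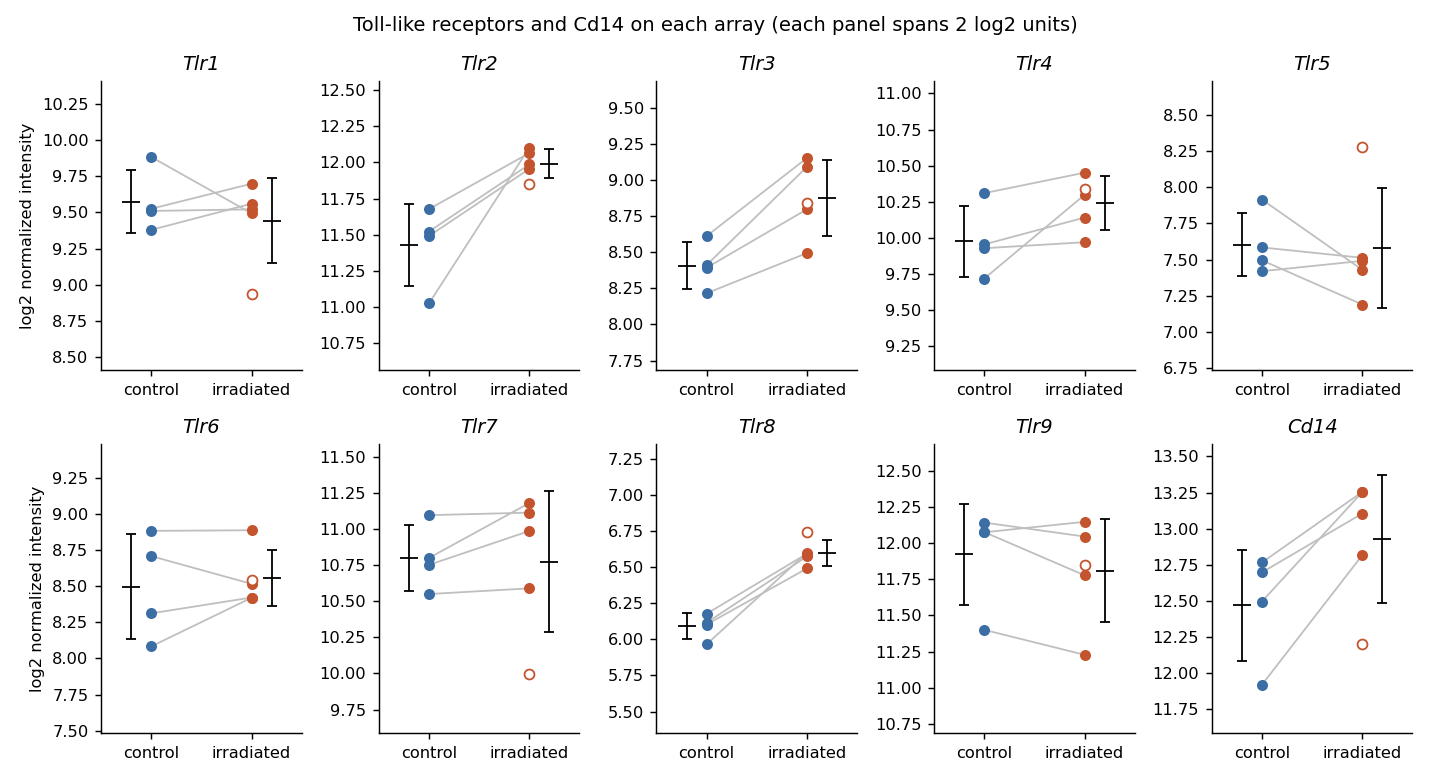
Log2 normalized intensity (vertical axis) of Tlr1 to Tlr9 and Cd14 on the control arrays (blue) and the irradiated arrays (orange), with grey lines joining the arrays of a scan pair, an open circle for irradiated array 1 and black bars for the mean with the SD. In the panels of Tlr2 and Tlr8 the groups do not overlap, and in that of Cd14 all 4 lines slope upward while irradiated array 1 lies at 12.20, within the control range.

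Among the receptors of lipopeptides, Tlr2 stood higher on every irradiated array while its partners Tlr1 and Tlr6 did not differ beyond the spread between arrays. Tlr2 pairs with Tlr1 or Tlr6 and binds bacterial lipopeptides as well as endogenous ligands of injured tissue. Its log2 normalized intensity was 11.68, 11.02, 11.52 and 11.49 on control arrays 1 to 4. It was 11.85, 12.07, 12.10, 11.99 and 11.96 on irradiated arrays 1 to 5. The irradiated arrays lay close together, with an SD of 0.097 against 0.28 on the control arrays, of which control 2 was the lowest. The difference was 0.56 with a standard error of 0.13, a 1.48-fold higher level with a 95% confidence interval of 1.21 to 1.81. By limma its unadjusted p was 0.0015 and its adjusted p 0.126, and the exact two-sided permutation test gave p = 0.00794, the smallest that regroupings of 4 and 5 arrays can give.

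Within the scan pairs Tlr2 was higher by 0.39, 1.08, 0.46 and 0.46 on the log2 scale, the largest of these in the pair with control 2. The limma adjusted p was 0.0117 with the random block and 0.0834 with the fixed block. Without control 2 the difference was 0.43, without irradiated 1 it was 0.60, and without both control 3 and irradiated 1 it was 0.63, with limma adjusted p of 0.150, 0.0895 and 0.167. In the authors' own normalized table the Tlr2 difference was 0.38 and the groups overlapped, with control 1 at 13.51 and irradiated 1 at 13.44 on the log2 scale of that table.

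The Tlr2 probe is printed on 10 spots of each array, so the reading error of an array can be set beside the spread between arrays. The SD between the spots of an array was 0.0186 to 0.0627 on the log2 scale. All 44 usable spots of the irradiated arrays, the lowest at 11.83, lay above all 38 usable spots of the control arrays, the highest at 11.77. The spots of an array share its RNA and are not replicates of the condition.

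**Figure D2:**
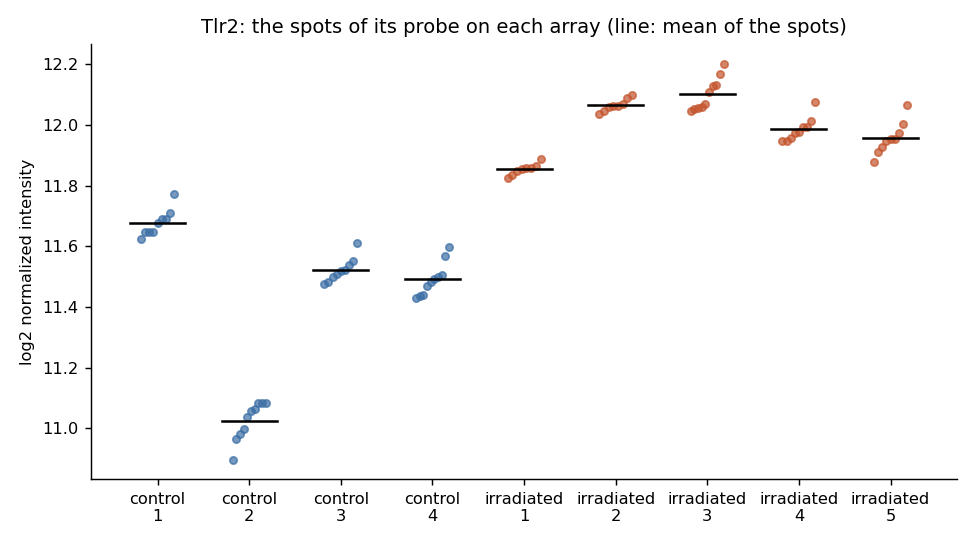
Log2 normalized intensity (vertical axis) of every usable spot of the Tlr2 probe on each of the 9 arrays (horizontal axis), with a line at the mean of the spots of an array. The spots of an array lie within a narrow band, and the irradiated arrays start at 11.83, above the highest control spot at 11.77.

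Tlr1, which recognises triacylated lipopeptides together with Tlr2, read 9.53, 9.51, 9.38 and 9.88 on the control arrays. On the irradiated arrays it read 8.93, 9.70, 9.52, 9.56 and 9.49. The lowest value was that of irradiated 1, and the other irradiated arrays lay within the control range. The Tlr1 difference was -0.13 with a standard error of 0.17 (limma adjusted p = 0.889), and its 95% confidence interval ran from -0.52 to 0.25. Without irradiated 1 it was -0.006, and without both control 3 and irradiated 1 it was -0.07.

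Tlr6, which recognises diacylated lipopeptides together with Tlr2, read 8.71, 8.88, 8.31 and 8.08 on the control arrays. Its irradiated values were 8.54, 8.52, 8.89, 8.42 and 8.42, with irradiated 3 the highest and all values but that one within the control range. The Tlr6 difference was 0.06 with a standard error of 0.19 (limma adjusted p = 0.973) and a 95% confidence interval of -0.36 to 0.48. Scaling each array to its 75th percentile turned it to -0.05 and leaving out control 3 moved it to 2.27e-05, so no direction is given for Tlr6.

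Tlr4 and Cd14, which together with Ly96 bind the lipopolysaccharide of gram-negative bacteria, were both higher on the irradiated array of every scan pair, and Cd14 passed the threshold in a single fit. Tlr4 read 10.31, 9.72, 9.96 and 9.93 on the control arrays and 10.34, 10.45, 10.30, 10.14 and 9.97 on the irradiated arrays. Control 1 lay close to irradiated 1 and irradiated 3, and the groups overlapped. The Tlr4 difference was 0.26 with a standard error of 0.14 (limma adjusted p = 0.619, exact permutation p = 0.0873). Within the scan pairs it ran from 0.04 to 0.58, with a limma adjusted p of 0.169 with the random block.

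Cd14 read 12.70, 12.77, 11.92 and 12.50 on the control arrays. Its irradiated values were 12.20, 13.11, 13.25, 12.82 and 13.25. Irradiated arrays 2 to 5 lay above all control arrays, and irradiated 1 lay below all of them but control 3. The Cd14 difference was 0.46 with a standard error of 0.24, a 1.37-fold higher level with a 95% confidence interval of 0.943 to 2.00 (limma adjusted p = 0.60, exact permutation p = 0.151).

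Within the scan pairs Cd14 was higher by 0.41, 0.49, 0.90 and 0.76 on the log2 scale. With the fixed block, which leaves out irradiated 1, the difference was 0.64 with a standard error of 0.10 and a limma adjusted p of 0.0465. With the random block it was 0.57 with a limma adjusted p of 0.0562. The size of the Cd14 difference varied with the arrays left out. It was 0.64 without irradiated 1, 0.27 without control 3 and 0.45 without both, with limma adjusted p of 0.197, 0.837 and 0.247. The single removals of these arrays thus moved it in opposite directions. Without irradiated 3 it was 0.37, and without irradiated 5 it was 0.37.

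Tlr5, the receptor of flagellin, read 7.58, 7.42, 7.49 and 7.92 on the control arrays and 8.28, 7.51, 7.49, 7.19 and 7.43 on the irradiated arrays. Irradiated 1 was the highest of all 9 arrays and irradiated 4 the lowest. The Tlr5 difference was -0.02 with a standard error of 0.23 (limma adjusted p = 0.998), and its 95% confidence interval ran from -0.53 to 0.48. Without irradiated 1 it was -0.20 (limma adjusted p = 0.816) and without both it and control 3 it was -0.23, and without control 4 or irradiated 4 it turned positive, at 0.08 and 0.07.

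Of the endosomal receptors, Tlr3 and Tlr8 were higher on the irradiated arrays at an unadjusted p under 0.05, and Tlr7 and Tlr9 showed no difference beyond the spread between arrays. Tlr3, which binds double-stranded RNA, read 8.22, 8.41, 8.61 and 8.39 on the control arrays. On the irradiated arrays it read 8.84, 8.49, 9.09, 9.15 and 8.80. All irradiated arrays but irradiated 2 lay above the highest control value, that of control 3.

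The Tlr3 difference was 0.47 with a standard error of 0.16, a 1.38-fold higher level with a 95% confidence interval of 1.08 to 1.77. By limma its unadjusted p was 0.0163 and its adjusted p 0.326, and the exact permutation p was 0.0238. Within the scan pairs Tlr3 was higher by 0.28, 0.68, 0.54 and 0.40 on the log2 scale, with a limma adjusted p of 0.0221 with the random block and 0.0740 with the fixed block. The difference was 0.54 without both control 3 and irradiated 1 and 0.30 in the authors' normalized table.

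Tlr8, a receptor of the breakdown products of single-stranded RNA, read 6.10, 6.11, 5.97 and 6.18 on the control arrays and 6.74, 6.49, 6.57, 6.60 and 6.59 on the irradiated arrays. These intensities are low. The lowest signal called well above background was 5.11 on control 1 and ran from 2.55 on irradiated 4 to 5.17 on irradiated 1. The groups were separated by a gap between control 4 and irradiated 2, and both had an SD of 0.09. The Tlr8 difference was 0.51 with a standard error of 0.15, a 1.42-fold higher level with a 95% confidence interval of 1.13 to 1.80. By limma its unadjusted p was 0.0070 and its adjusted p 0.242, and the exact permutation p was 0.00794.

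Within the scan pairs Tlr8 was higher by 0.39, 0.46, 0.63 and 0.42 on the log2 scale, and its limma adjusted p was 0.0191 with the random block and 0.0965 with the fixed block. This separation depended on the scaling. With scaling to the 75th percentile the Tlr8 difference was 0.29 and the groups overlapped, with control 3 at 6.34 and irradiated 3 at 6.29, and in the authors' table the difference was 0.27, also with overlap. Without both control 3 and irradiated 1 it was 0.43. With normexp background correction the difference was 0.28 and the groups stayed apart, between 7.24 on control 1 and 7.35 on irradiated 2.

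Tlr7, the receptor of single-stranded RNA whose gene neighbours that of Tlr8, read 10.55, 10.80, 11.09 and 10.75 on the control arrays. Its irradiated values were 10.00, 10.59, 11.18, 11.11 and 10.98, with irradiated 1 the lowest of all 9 arrays. The Tlr7 difference was -0.03 with a standard error of 0.24 (limma adjusted p = 0.998). It turned positive without irradiated 1 (0.17), without control 3 (0.07) and without both (0.27). The Tlr7 gene has a further probe, which read 9.45, 9.17, 9.36 and 9.52 on the control arrays and 9.53, 9.46, 9.79, 9.48 and 9.70 on the irradiated arrays. This probe gave a difference of 0.22 with a standard error of 0.12 (limma adjusted p = 0.625), and irradiated 1 did not stand apart on it. Both probes were higher on the irradiated array in all 4 scan pairs, so the probes disagree in sign over all arrays and not within the pairs.

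Tlr9, which binds unmethylated CpG DNA and is abundant in B cells and plasmacytoid dendritic cells, read 12.08, 12.08, 12.14 and 11.40 on the control arrays. On the irradiated arrays it read 11.85, 12.15, 11.78, 12.05 and 11.23. The low arrays, control 4 and irradiated 5, form a scan pair. The Tlr9 difference was -0.11 with a standard error of 0.21 (limma adjusted p = 0.934), and its 95% confidence interval ran from -0.58 to 0.35. It was -0.29 without control 4 and turned to 0.03 without irradiated 5. It was -0.04 without control 3 and -0.05 without both control 3 and irradiated 1. With the fixed block it was -0.12 with a standard error of 0.075 (limma adjusted p = 0.417).

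**Figure D3:**
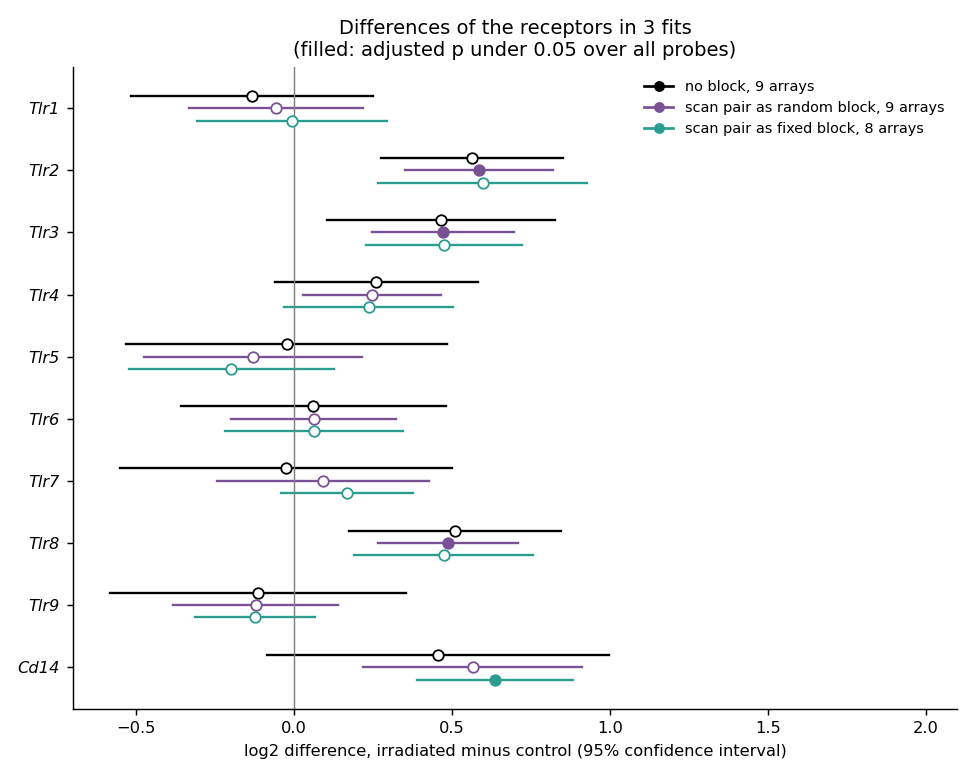
Log2 difference, irradiated minus control, with its 95% confidence interval (horizontal axis) for each of the 10 genes in 3 limma fits, where a filled circle marks an adjusted p under 0.05 over all probes. No circle is filled in the fit without a block (black), those of Tlr2, Tlr3 and Tlr8 are filled with the scan pair as a random block (purple), and that of Cd14 with the scan pair as a fixed block (green).

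The arrays differed in how far the receptors lay from their control levels. Averaged over the 10 genes, the log2 difference from the control mean lay between -0.04 and 0.07 for the control arrays. It was 0.08 on irradiated 1, 0.23 on irradiated 2, 0.34 on irradiated 3, 0.23 on irradiated 4 and 0.14 on irradiated 5. Irradiated 1 was the lowest of its group for 4 of the 10 genes (Tlr1, Tlr2, Tlr7 and Cd14) and the highest for 2 (Tlr5 and Tlr8).

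The rest of the pathway was described through 8 lists with 75 genes, of which 74 were found on the arrays and 68 were well above background on all of them. By limma 0 of these 74 genes passed an adjusted p of 0.05. At an unadjusted p under 0.05, 18 of the 74 (24.3%) were higher and 1 (1.35%) was lower, beside 7.37% and 4.98% of all genes. The irradiated arrays all lay above the control arrays for 5 of the 74 genes (6.76%, beside 3.39% of all genes) and below for 0. The difference was positive for 54 genes, with a median of 0.19. With the scan pair as a random block 15 genes (20.3%, beside 5.64% of all genes) passed as higher and 1 as lower, and with the fixed block 8 (10.8%, beside 2.25%) passed as higher.

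The co-receptors of the cell surface differed in direction. Lbp, the plasma protein that carries lipopolysaccharide to Cd14, read 11.97, 11.37, 11.83 and 12.05 on the control arrays and 12.16, 12.64, 12.28, 12.34 and 12.54 on the irradiated arrays. Its groups did not overlap, and the difference was 0.59 with a standard error of 0.15 (limma adjusted p = 0.182, and 0.0069 and 0.0385 with the random and the fixed block). Cd36, a scavenger receptor that assists Tlr2 and is also carried by capillary endothelium, read 14.69, 13.93, 14.49 and 14.33 on the control arrays and 14.38, 13.87, 13.87, 13.85 and 13.49 on the irradiated arrays. Its difference was -0.47 with a standard error of 0.19 (limma adjusted p = 0.424, and 0.0467 and 0.106 with the random and the fixed block), and it was the gene of the 74 that was lower at an unadjusted p under 0.05. Ly86, the partner of Cd180, differed by 0.24 (limma adjusted p = 0.808). Ly96, the partner of Tlr4 in binding lipopolysaccharide, which was chosen after its values were seen, differed by 0.41 (limma adjusted p = 0.525) and was higher in all 4 scan pairs.

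The other Toll-like receptors of the mouse, which are not present as functional genes in humans, were positive without passing the threshold. Tlr13, a receptor of bacterial ribosomal RNA, differed by 0.25, Tlr12 by 0.40 and Tlr11, which together with Tlr12 recognises the profilin of parasites, by 0.36. Their limma adjusted p was 0.646, 0.521 and 0.851. Each was higher in all 4 scan pairs.

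The proteins that fold, carry and cleave the receptors were positive for 9 of 9 genes, with a median difference of 0.32, beside 51.9% of all genes that were positive, and 5 were higher at an unadjusted p under 0.05, beside 7.37% of all genes. The chaperone Hsp90b1, which most Toll-like receptors need to fold, differed by 0.24 (limma adjusted p = 0.609). Larger differences were found among the lysosomal proteases that cleave the endosomal receptors. Ctss differed by 0.74 with a standard error of 0.23 and Ctsb by 0.49 with a standard error of 0.16 (limma adjusted p = 0.270 and 0.296, 0.0130 and 0.0266 with the random block, and 0.0403 and 0.0852 with the fixed block). Ctsk and Lgmn, chosen after their values were seen, differed by 1.70 and 0.55, with limma adjusted p of 0.0654 and 0.197, 0.0079 and 0.0158 with the random block, and 0.0725 and 0.0834 with the fixed block. Ctsk read 13.52, 13.57, 12.90 and 12.90 on the control arrays and 14.30, 14.26, 14.93, 15.77 and 15.37 on the irradiated arrays, with no overlap. Without irradiated 1 its difference was 1.86 with a limma adjusted p of 0.0306, and with scaling to the 75th percentile it was 1.73 with 0.0451. These proteases also serve general lysosomal degradation. Unc93b1, which brings the endosomal receptors to their compartment and was also chosen after its values were seen, differed by 0.13 (limma adjusted p = 0.906).

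The lists of signalling proteins between the receptors and the nucleus had median differences near that of all genes. The 6 adaptors had a median difference of -0.03, and Sarm1 was not well above background on any array. Myd88 differed by 0.21 with a standard error of 0.19 (limma adjusted p = 0.816, and 0.162 and 0.0425 with the random and the fixed block), Ticam1 by 0.25 and Tirap by 0.04. The 16 kinases and ubiquitin ligases had a median of 0.02, and the brightest of them, Chuk, Peli1 and Irak2, differed by 0.03, -0.09 and -0.10. Traf3, a ubiquitin ligase on the branch to interferon, differed by 0.25 (limma adjusted p = 0.378, and 0.0209 and 0.0475 with the random and the fixed block), and it was chosen after its values were seen.

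The 8 transcription factors had a median difference of 0.06. The brightest, Rela, Jun and Irf3, differed by 0.12, -0.21 and -0.11. Irf7, which drives type I interferon genes and is itself induced by interferon, was chosen after its values were seen and differed by 0.72 with a standard error of 0.27 (limma adjusted p = 0.367, and 0.0232 and 0.0573 with the random and the fixed block). The 12 inhibitors of the pathway had a median of 0.06. At an unadjusted p under 0.05 by limma, 1 of the 12, Tnfaip3, was higher, beside 7.37% of all genes. Tnfaip3, chosen after its values were seen, differed by 0.30 (limma adjusted p = 0.392, and 0.0399 and 0.107 with the random and the fixed block). The brightest inhibitors, Nfkbia, Trafd1 and Tnip1, differed by 0.07, -0.12 and 0.18.

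The target genes of the receptors had the highest median difference of the 8 lists, and irradiated 1 did not share the largest differences among them. Of 15 target genes found on the arrays, 13 were positive (51.9% of all genes were), 8 were higher at an unadjusted p under 0.05 (7.37% of all genes were), and the median difference was 0.69. The 8 include Cxcl2, chosen after its values were seen, which was well above background on 1 of 4 control arrays and 4 of 5 irradiated arrays. Saa3, an acute phase protein, was among the brightest target genes through its irradiated values, so it counts as chosen after its values were seen. It read 11.51, 11.21, 9.46 and 9.75 on the control arrays and 11.21, 15.66, 13.25, 14.40 and 14.02 on the irradiated arrays. Irradiated 1 lay within the control range and the other irradiated arrays lay above it. The Saa3 difference was 3.22 with a standard error of 0.80 (limma adjusted p = 0.157), and without irradiated 1 it was 3.84 with an adjusted p of 0.0235. With the random and the fixed block the limma adjusted p was 0.0068 and 0.0358.

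Il6 and Cxcl1, an inflammatory cytokine and a neutrophil chemokine, which were chosen after their values were seen, had the same arrangement, with irradiated 1 at 7.01 and 6.24 within the control ranges of 6.50 to 7.62 and 5.28 to 6.51. Their differences were 2.53 and 2.77 over all arrays (limma adjusted p = 0.178 and 0.127) and 3.16 and 3.35 without irradiated 1 (limma adjusted p = 0.00720 and 0.00820). With the random block the limma adjusted p was 0.0073 for Il6 and 0.0058 for Cxcl1, and with the fixed block 0.0277 and 0.0325. Ccl3, Ccl4 and Ptgs2, likewise chosen after their values were seen, were higher on every irradiated array, by 1.22, 0.69 and 1.06 (limma adjusted p = 0.113, 0.347 and 0.157, and 0.0043, 0.0246 and 0.0093 with the random block). With the fixed block Ccl3 alone of these passed, at 0.0310, beside 0.0686 for Ccl4 and 0.0592 for Ptgs2. Without irradiated 1 Ccl3 differed by 1.4 with a limma adjusted p of 0.0306. The bright target genes Ccl5 and Il1b differed by 0.06 and -0.35 (limma adjusted p = 0.981 and 0.718), and Tnf, chosen after its values were seen, differed by 0.38 (limma adjusted p = 0.824).

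**Figure D4:**
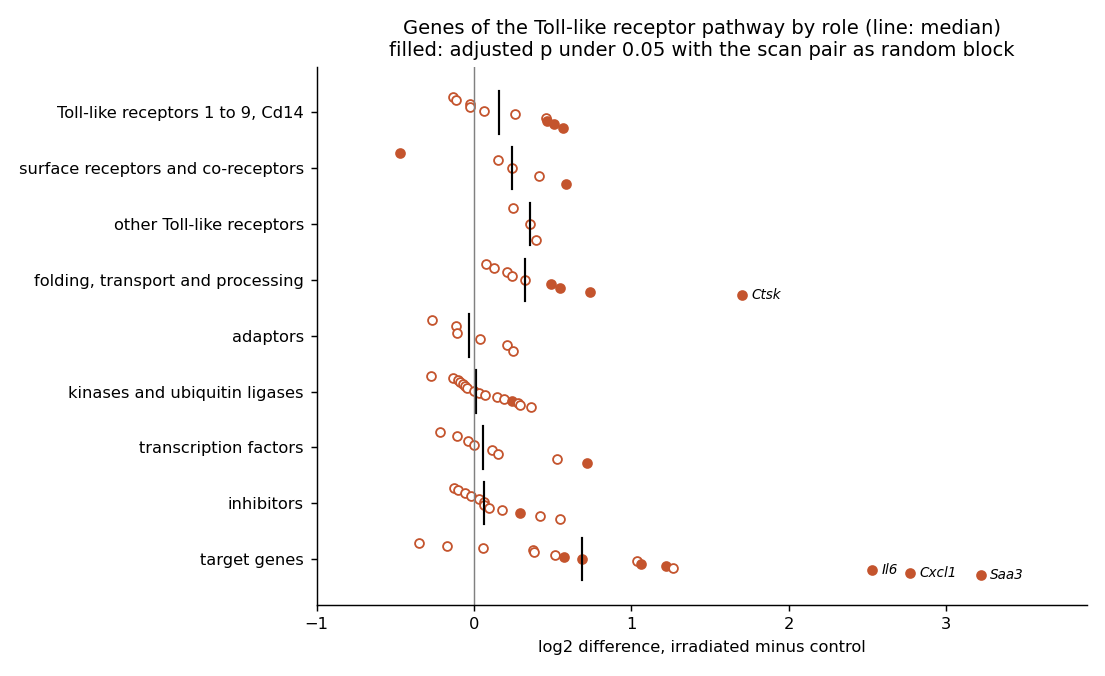
Log2 difference, irradiated minus control (horizontal axis), of every measured gene of the pathway, grouped by role, with a line at the median of each group and filled circles for an adjusted p under 0.05 with the scan pair as a random block. The adaptors and kinases lie around 0, the folding and processing genes lie at or above 0.08, and among the target genes Saa3, Cxcl1 and Il6 reach 3.22, 2.77 and 2.53.

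Markers of the cells that carry the receptors were read beside them, and the single marker genes named here were chosen after their values were seen. Over 10 marker lists with 59 measured genes 0 passed the threshold by limma, and 5 were higher and 6 lower at an unadjusted p under 0.05, as were 7.37% and 4.98% of all genes. With the scan pair as a random block 5 marker genes passed as higher and 3 as lower (5.64% and 3.8% of all genes), and with the fixed block 2 passed as higher (2.25% of all genes). Among 6 measured markers of monocytes and macrophages 6 of 6 were positive, and the mean log2 level of the list relative to the control mean lay between -0.19 and 0.17 for control and between 0.02 and 0.59 for irradiated arrays, with irradiated 1 the lowest of its group. Adgre1, which encodes F4/80, was higher on every irradiated array by 0.72 (limma adjusted p = 0.138, and 0.0072 and 0.0425 with the random and the fixed block), while Csf1r differed by 0.09. Of the 6 markers of alveolar macrophages 2 were positive, with Mrc1 at 0.60 and Marco at -0.63 (limma adjusted p = 0.0655 and 0.774, and 0.0046 and 0.0535 for Mrc1 with the random and the fixed block). Fabp4 had the largest difference of the 6, at -1.59 (limma adjusted p = 0.409, and 0.0577 and 0.0843 with the random and the fixed block).

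The leukocyte list (Ptprc, Coro1a and Laptm5) ranged from -0.48 to 0.30 among control arrays and from -0.26 to 0.40 among irradiated arrays. The neutrophil list, with 7 of 8 markers found, ranged from -0.62 to 0.79 and from -1.36 to 0.28. The B-cell list ranged from -0.48 to 0.46 and from -0.36 to -0.19, with 5 of 6 differences negative. The list of dendritic cells ranged from -0.38 to 0.39 and from -0.16 to 0.69, with 3 of 5 differences positive, Itgax at 0.70 (limma adjusted p = 0.150, and 0.0091 and 0.0542 with the random and the fixed block) and Ccr7 at -0.26, and that of lung epithelium from -0.08 to 0.08 and from -0.04 to 0.11. The endothelial list ranged from -0.07 to 0.13 and from -0.46 to 0.22. The list of monocytes and macrophages thus lay above the control range on irradiated arrays 2 to 5, as did Tlr2, Cd14 and Tlr8. Its part in these differences was not tested. On irradiated 1 this list lay at 0.02, within the control range, as was Cd14 at 12.20, while Tlr2 and Tlr8 lay above every control array. The alveolar macrophage list did not rise with them. It ranged from -0.42 to 0.57 among control arrays and from -0.52 to 0.01 among irradiated arrays. The marker lists showed that the arrays hold lung RNA, with Sftpc, which encodes surfactant protein C, at 19.36 to 19.43 on all 9 arrays.

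The genes whose log2 values followed those of the 3 receptors most closely over the 9 arrays were named as a description, among 15234 genes that were well above background on every array. For Tlr2 they were Scarb2, a lysosomal membrane protein, Eif2s2, a subunit of a translation initiation factor, and Pde10a, a phosphodiesterase, with Pearson correlations of 0.98, 0.98 and 0.97 and Spearman correlations of 0.93 each. After the group means were removed the Pearson correlations were 0.94, 0.94 and 0.88. For Tlr3 they were Spata5, Ccdc25 and Minpp1 (Pearson 0.96 each, and 0.93, 0.91 and 0.95 without the group means). For Tlr8 they were Shisa6, Psrc1 and Agrn (0.98, 0.97 and 0.96), where the correlations fell to 0.79, 0.56 and 0.74 without the group means. The highest of so many correlations over 9 arrays are high by selection, and the arrays of a scan pair share a part of their deviations.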

How the data were processed

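The arrays were one-color Agilent mouse whole genome arrays. For each array the authors deposited Feature Extraction intensity values without normalization between arrays (processed signal, median signal, local background, spot marks and image position) and a table of quantile-normalized intensity values, which was used as an alternative. The genome build of the arrays is not given in the sources used here. Columns of other samples that were left unused numbered 0.

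Each array held 44397 spots, of which 1377 control spots and the spots marked as outliers were left out. No spot was saturated, and 72.8% to 89.1% were well above background. The processed signal was log2 transformed, quantile normalized and averaged over the spots of a probe. A probe was kept (39303 of 39429) where 4 or more of the 9 arrays read over 1.4 times local background. Accessions gave 26055 probes (66.1%) 1 symbol in a RefSeq table (GRCm38.p6, used for names), and 13374 had none there. A gene was represented by its brightest probe, and probe brightness was used to choose which probes and genes to name, not to compare the levels of genes. Groups were compared with limma 3.58.1 in R 4.3.3 (intensity trend, no covariates, Benjamini-Hochberg adjustment over all probes, threshold 0.05), and single genes with an exact two-sided permutation test. Precision is limited by the number of arrays.

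The members and gene lists were chosen with earlier results of these data known. The genes named were the 10 members, up to 3 of the brightest genes of each pathway list and any that passed. Others are marked where they appear or are named only for low signal over background. Alternatives were normexp background correction, scaling to the 75th percentile, other background filters, the authors' table, each array left out in turn, control 3 and irradiated 1 left out together, a replicate block, the scan pair as a block, no intensity trend, array weights and, for a gene, the mean over its probes.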

Additional observations from a re-analysis of the deposited data

Results flagged for a closer look

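In 5 of 40 groups of arrays, over the 10 genes and the 10 marker lists, an extreme array was separated from the rest of its group by more than Dixon's critical value, which chance alone gives in about 5% of groups. Tlr1 read 8.93 on irradiated 1, against 9.49 to 9.70 on the other irradiated arrays. Tlr6 read 8.89 on irradiated 3, against 8.42 to 8.54 on the others. Tlr9 read 11.40 on control 4, against 12.08 to 12.14 on the other control arrays. The mean level of the cardiac muscle list relative to the control mean was -5.97 on irradiated 1, against -0.46 to 0.40 on the others. That of the skeletal muscle list was 4.62 on control 3, against -1.76 to -1.39 on the others.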

How the results depend on the processing

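The difference kept its sign for Tlr1, Tlr2, Tlr3, Tlr4, Tlr8 and Cd14 under all 21 alternatives, with ranges of -0.21 to -0.006 for Tlr1, 0.38 to 0.65 for Tlr2, 0.30 to 0.56 for Tlr3, 0.17 to 0.37 for Tlr4, 0.27 to 0.54 for Tlr8 and 0.27 to 0.64 for Cd14. Of the 10 receptors, 1 passed the threshold with the scan pair as a fixed block, 3 passed with it as a random block (Tlr2 at 0.58, Tlr3 at 0.47 and Tlr8 at 0.49) and 0 passed under the other alternatives. The sign turned for Tlr5 with the replicate block (0.015), for Tlr6 with scaling to the 75th percentile (-0.052) and in the authors' table (-0.020), for Tlr7 without both control 3 and irradiated 1 (0.27), with the fixed scan pair block (0.17), the random block (0.091), array weights (0.049) and the mean of its probes (0.095), and for Tlr9 with the replicate block (0.032). When each array was left out in turn, Tlr5 ranged from -0.20 to 0.081, Tlr6 from -0.076 to 0.19, Tlr7 from -0.13 to 0.17 and Tlr9 from -0.29 to 0.032.

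Of the 74 other pathway genes, 1 passed with scaling to the 75th percentile, with the background filter on all 9 arrays and in the authors' table (Ctsk each time), 2 without both control 3 and irradiated 1 (Il6 and Cxcl1), 8 with the fixed and 16 with the random scan pair block, and 0 to 5 when each array was left out in turn, the 5 without irradiated 1 (Ctsk, Il6, Cxcl1, Ccl3 and Saa3). Over all genes, 82 passed (52 higher and 30 lower), against 41 higher and 39 lower with scaling to the 75th percentile, 77 higher and 49 lower with the filter on all 9 arrays, 12 higher and 15 lower in the authors' table (27 in all), 127 with array weights, 17 without an intensity trend, 751 with the fixed and 1859 with the random block, 325 without irradiated 1, 5 to 25 without any 1 of the other arrays, and 1 with the replicate block. The replicate numbers in the titles did not pair the arrays (correlations of -0.167 to 0.0618 between same-numbered arrays), and with the replicate block 0 receptors passed. The cause of these differences was not tested. Signal over background limits 6 of the 74 pathway genes, namely Sarm1, which was not well above background on any array, and Ticam2, Rel, Il12a, Cxcl2 and Ifnb1, which were on some.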
